A study of Chlorocebus sabaeus with 10 samples.

Results

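The primate chromosome 19 miRNA cluster was examined in small RNA sequencing data from the livers of female vervet monkeys (Chlorocebus sabaeus). Its miRNAs were taken by name from the deposited table, which lists human miRNA names: miR-498, miR-512, miR-515 to miR-527, miR-1283 and miR-1323, with their lettered and numbered copies. These were 62 of the 2588 names in the table, spread over 46 hairpins. Names whose counts were identical on identical hairpins were counted once, unless they named opposite arms, which gave 52 miRNAs of 2563 in all. The 10 animals fell into an HFr group (5 animals fed a high fructose diet) and a chow group (5 animals), and all of them had been kept on chow beforehand. The samples were pieces of whole liver, a mixture of cell types, in which fewer cells of a type and less RNA per cell cannot be told apart.

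Libraries are only numbered in the table and their names fit none of the sample labels. HFr and chow livers were therefore not compared. Every value below is the authors' total count over all libraries, pooled without regard to diet. Deeply sequenced libraries count for more in such a total, and 1 numbered column was seen to be almost empty. There are no replicates, and values for single animals are not given. Intervals are 95% intervals of counting error alone and treat every read as an independent count. Reads made by PCR without molecular identifiers are not independent molecules, so the intervals may be too narrow. Reads of different miRNAs are not molecules per cell, since adapters join some miRNAs more readily than others.

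A miRNA is cut from a hairpin precursor, which can give a mature strand from its 5p arm, its 3p arm or both, and guides the silencing of messenger RNAs that pair with its first bases. The chromosome 19 cluster is found in primates and consists of many near-copies of related hairpins lying among Alu repeats. In humans it is imprinted, read from the paternal chromosome, and known above all from the placenta, where trophoblast cells make its miRNAs in large amounts and release them into the blood of the mother. It is otherwise known from embryonic stem cells and some tumours. Healthy adult liver is not among the tissues for which the cluster is known.

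The pool was led by a hepatocyte miRNA. miR-122-5p, the leading miRNA of hepatocytes, made up 45.7% of 2020561 reads, and miR-194-5p, another hepatocyte miRNA, made up 2.29%. The other hepatocyte markers, miR-148a-3p and miR-192-5p, made up 1.38% and 0.890%. Among the fixed markers of other liver cells, only 2 reached like shares. These were miR-143-3p (fibroblasts and stellate cells) with 2.09% and miR-126-3p (endothelium) with 1.01%. The others lay lower. The red blood cell markers miR-486-5p and miR-451a made up 0.420% and 0.117%. Those of leukocytes and biliary epithelium, and miR-199a-5p of fibroblasts and stellate cells, lay between 0.0615% (miR-142-3p) and 0.0158% (miR-429). The miRNAs fixed as markers of embryonic stem cells were nearly missing, with 0 reads of miR-302a-3p, miR-302b-3p, miR-302d-3p and miR-367-3p, 4 reads of miR-372-3p and 1 read of miR-373-3p. No list of placenta markers outside the cluster was fixed, so none was examined as such.

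Reads of the cluster made up a small part of the pool, and how they were spread over the livers is not known. Its miRNAs came to 605 reads, or 0.0299% of the pool (Wilson interval 0.0276 to 0.0324%). Reads were found for 32 of the 52 miRNAs (61.5%), against 25.9% of all miRNAs in the table. A minimum of 10 reads was reached by 12 of the 52 (23.1%), against 15.3% of all miRNAs in the table. At higher counts the order was turned round: 2 miRNAs of the cluster (3.85%) had at least 100 reads, against 7.88% of the table, and the cluster had 0 miRNAs with at least 1000 reads, against 85 in the table. The median was 1 read over the 52 miRNAs of the cluster and 0 reads over the 2511 others, and among miRNAs with reads it was 4.5 reads in the cluster and 21 reads in the others. These shares were not tested against each other.

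**Figure D1:**
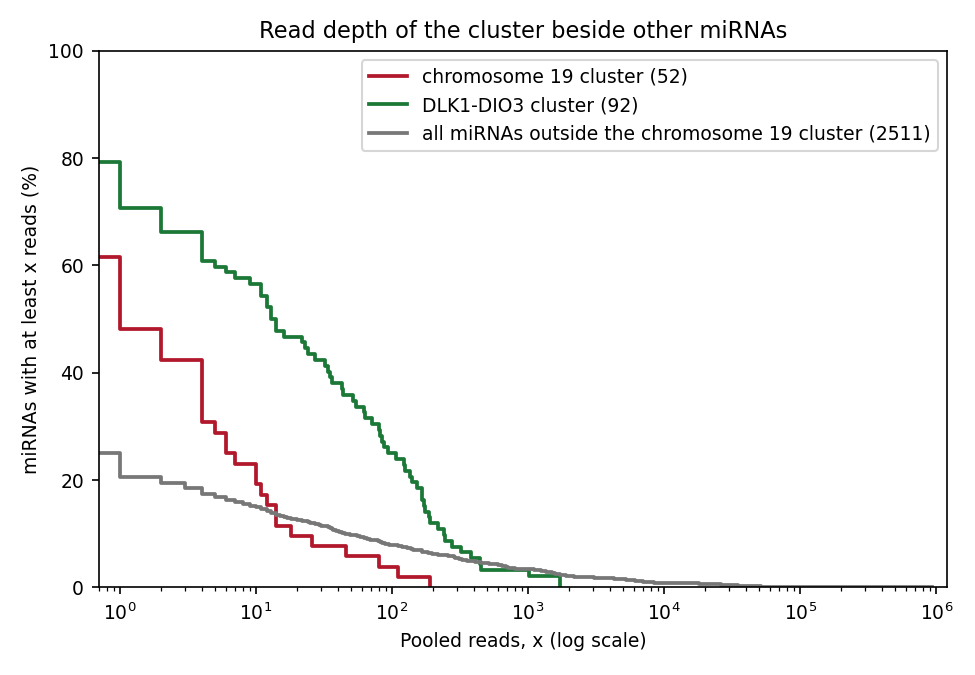
Share of miRNAs (vertical axis, percent) with at least x pooled reads (horizontal axis, reads on a log scale) for the 52 miRNAs of the chromosome 19 cluster, the 92 of the DLK1-DIO3 cluster and the 2511 outside the chromosome 19 cluster, which include the DLK1-DIO3 miRNAs. The curve of the chromosome 19 cluster starts at 61.5% at 1 read, above the 25.1% of the other miRNAs, falls below theirs and ends at its highest count, 191 reads, and the DLK1-DIO3 curve lies above it throughout.

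To put 605 reads in proportion, the whole cluster was set beside single miRNAs of minor liver cell types. The cluster had 0.953 times the reads of miR-199a-5p, a stellate cell and fibroblast miRNA with 635 reads (exact binomial interval of the ratio 0.851 to 1.07), so those counts did not differ beyond counting error. It had 0.872 times the 694 reads of miR-223-3p, a myeloid miRNA (interval 0.780 to 0.974). It had 1.90 times the 319 reads of miR-429, a miRNA of biliary epithelium (interval 1.65 to 2.18). These 3 were picked from the fixed markers after their counts were seen, and other fixed markers gave other proportions. miR-143-3p, the other marker of fibroblasts and stellate cells, had 42313 reads. miR-200b-3p, the other marker of biliary epithelium, had 763 reads, more than the 605 of the cluster. The order against these cell types thus depends on the marker chosen. miR-142-3p also had more, with 1242 reads. In the other direction, the cluster had 1.47 times the reads of miR-150-5p (interval 1.30 to 1.67).

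The miR-517 miRNAs led the cluster and held 303 of its 605 reads, or 50.1% (Wilson interval 46.1 to 54.1%). In human cells, miR-517a-3p and miR-517c-3p are known to repress TNIP1, a brake on NF-kB signalling, and both are abundant in human placenta. miR-517c-3p had 191 reads (exact Poisson interval 165 to 220), or 31.6% of the cluster, and stood at rank 162 of the 2563 miRNAs in the table. miR-517a-3p and miR-517b-3p shared a single count of 111 reads (interval 91.3 to 133.7) on the hairpins mir-517a and mir-517b and were counted as 1 miRNA at rank 198. miR-517c-3p exceeded that pair 1.72-fold (exact binomial interval 1.35 to 2.19). The table gives the pair's count on both hairpins. When it was added over them, the pair reached 0.00853% of the pool and passed miR-517c-3p, at 0.00734%, so the order of the leading miRNAs depends on how the copies are counted.

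miR-1323 followed with 81 reads (exact Poisson interval 64.3 to 101), or 13.4% of the cluster. Its name gives no arm and it has 1 hairpin in the table. miR-524-3p came next with 46 reads (interval 33.7 to 61.4), or 7.60%. The pair miR-517a-3p and miR-517b-3p had 1.37 times the reads of miR-1323 (exact binomial interval 1.02 to 1.85), miR-1323 had 1.76 times those of miR-524-3p (interval 1.21 to 2.59), and miR-524-3p had 1.77 times those of the next miRNA, miR-516b-5p (interval 1.07 to 2.98). With 1 row per name, each step in the order down to miR-516b-5p had an interval above 1, though the lower bounds of 1.02 and 1.07 lie close to it. With all hairpin rows added, miR-524-3p (0.00177% of the pool) and miR-516b-5p (0.00169%) lay close together, and the 5p strand that miR-519a shares with 5 other names (0.00319%) passed miR-1323 (0.00311%). The first 3 miRNAs held 63.3% of the cluster's reads (Wilson interval 59.4 to 67.1%) and the first 5 held 75.2%.

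From miR-516b-5p down, the order of neighbours was not resolved. miR-516b-5p had 26 reads (16.98 to 38.1 by the exact Poisson interval). miR-520d-3p had 18 reads (10.7 to 28.4), and the first exceeded it by a ratio of 1.44 whose interval, 0.762 to 2.80, holds 1. The 5p strand shared by miR-518e, miR-519a, miR-519b, miR-519c, miR-522 and miR-523 had 14 reads, counted once for its 6 names, and miR-526b-5p also had 14. miR-498, which in human ovarian cancer cells is known to repress the telomerase gene TERT, had 12 reads, miR-520f-5p had 11, and miR-516a-5p and miR-518c-3p had 10 each. No 2 neighbours in this stretch differed beyond counting error. Further apart, miR-516b-5p had 2.60 times the reads of miR-516a-5p (exact binomial interval 1.21 to 6.04).

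**Figure D2:**
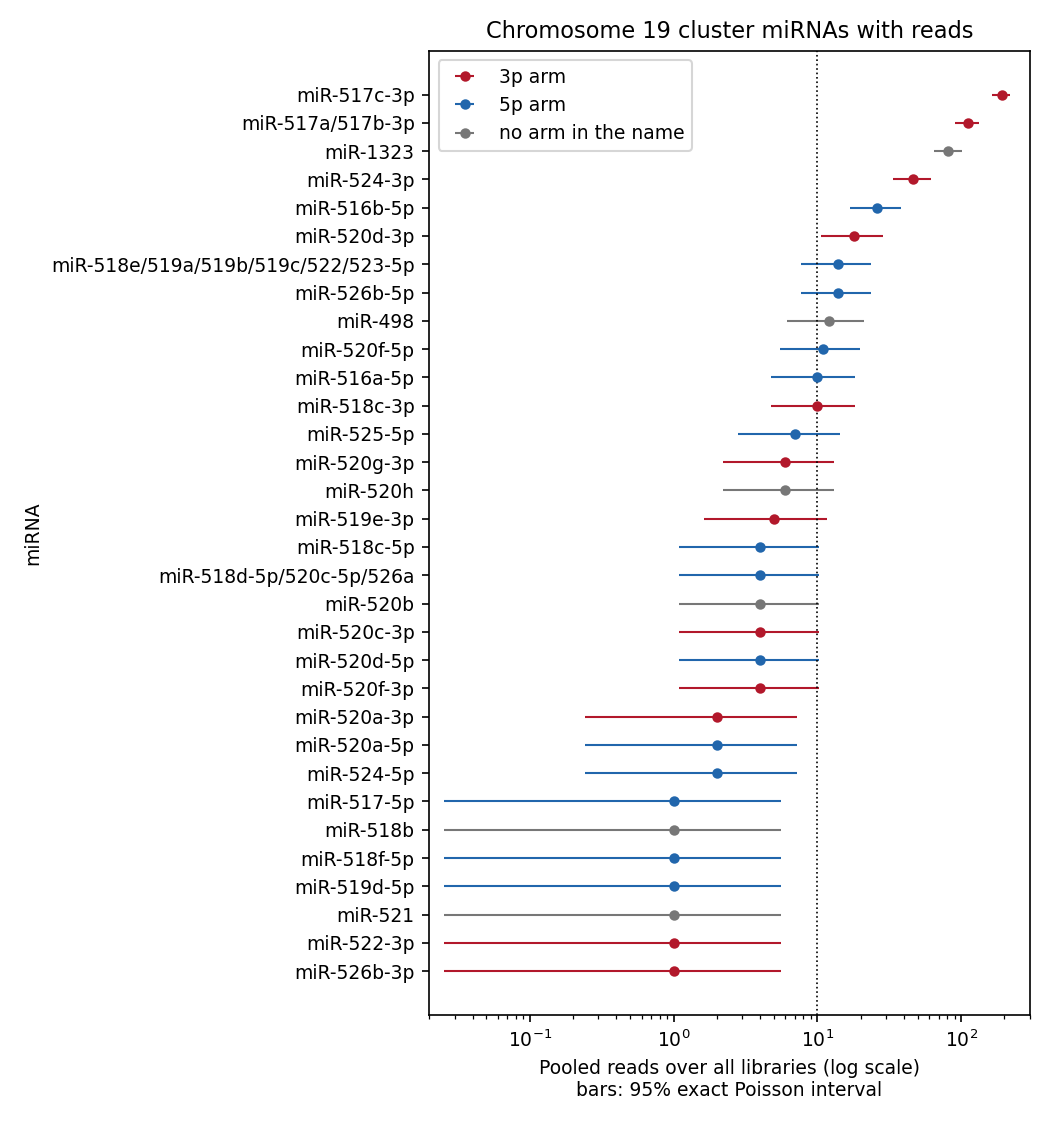
Pooled reads over all libraries (horizontal axis, log scale) for each of the 32 miRNAs of the cluster with reads, coloured by hairpin arm, with bars for the 95% exact Poisson interval and a dotted line at 10 reads. miR-517c-3p stands at 191 reads and the pair miR-517a-3p and miR-517b-3p at 111, 12 miRNAs lie at or above the line, and the intervals of those from miR-516b-5p down overlap their neighbours'.

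The other 20 miRNAs with reads had 61 reads between them, 7 of them resting on 1 read. miRNAs with fewer reads than the 10 libraries of the table cannot have been read in every library, so for these 20 at least 1 library had 0. Among them were strands opposite a more abundant arm: miR-517-5p (1 read), miR-524-5p (2 reads), miR-520d-5p (4 reads), miR-518c-5p (4 reads), miR-526b-3p (1 read), miR-522-3p (1 read) and miR-520f-3p (4 reads, none of them on its own hairpin). Others were the only strand read from their hairpin, such as miR-525-5p with 7 reads and miR-519e-3p with 5.

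The miR-520 miRNAs were the largest group by number. They had reads for 10 of 12 miRNAs and 61 reads in all, or 10.1% of the cluster (Wilson interval 7.93 to 12.7%). Of the 10, miR-520b, miR-520h and miR-520f-3p repeat counts of other names on a shared hairpin. The 61 reads and their share include these repeats. In human cells miR-520c is known to promote invasion through CD44, and miR-520h is known to repress the drug transporter ABCG2. miR-520c-3p had 4 reads and miR-520h had 6, while miR-520g-3p had 6, miR-520a-3p and miR-520a-5p had 2 each, and miR-520e and miR-520g-5p had 0. The largest counts of the group were the 18 reads of miR-520d-3p and the 11 of miR-520f-5p given above. Several of the human 3p strands of this group, though not all, carry a seed like that of the embryonic stem cell miRNAs miR-302 and miR-372. The 18 names fixed for the miR-302 and miR-371 to miR-373 clusters held 8 reads in all, over 3 names (miR-372-3p, miR-371a-5p and miR-373-3p). The names of miR-17, miR-20, miR-93 and miR-106, found throughout the body and known for a related seed on their 5p strands, held 16583 reads over 11 of 12 names of both arms, 27.4 times those of the whole chromosome 19 cluster (exact binomial interval 25.3 to 29.8).

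Among the miR-519 3p strands, miR-519a-3p, miR-519b-3p, miR-519c-3p and miR-519d-3p had 0 reads each. miR-519e-3p went the other way, with 5 reads, against 0 of miR-519e-5p. miR-519d-3p is known in human fat tissue to repress PPARA, the transcription factor whose network the study examined. By a one-sided limit of 3 reads, a strand with 0 reads could hold up to 0.000148% of the pool, and the upper bound of the two-sided exact Poisson interval is 3.69 reads. miR-519d-5p had 1 read. The 5p strand that miR-519a, miR-519b and miR-519c share with other hairpins was the one with 14 reads, and which of its hairpins gave them cannot be told from the counts.

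Reads were missing for 20 of the 52 miRNAs. Whole groups without a read were miR-512, whose hairpins lie at one end of the human cluster, miR-515 and miR-1283. Also at 0 were miR-518a-3p, miR-518d-3p, miR-518e-3p, miR-518f-3p, miR-523-3p, miR-525-3p, miR-519e-5p, the 3p strand shared by miR-516a and miR-516b, and the strand listed as both miR-518a-5p and miR-527. By arm, 13 of the 20 were 3p strands, 5 were 5p strands and 2 had no arm in the name. Reads were counted under human names, and a vervet strand unlike its human counterpart can be missed or undercounted. Whether that happened here was not tested, so a miRNA at 0 was not detected under that name at this depth.

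The arms of the cluster were used unequally, and in both directions. Over the miRNAs with an arm in the name, 399 reads lay on 3p strands and 101 on 5p strands, a 3p share of 79.8% (Wilson interval 76.1 to 83.1%). This share rested on miR-517: without its 3 miRNAs it was 49.2% (interval 42.3 to 56.2%), from 97 reads on 3p strands and 100 on 5p strands. In the DLK1-DIO3 cluster the 3p share was 54.0% (interval 53.0 to 55.0%). Reads were found for 12 of 25 3p strands and 14 of 19 5p strands of the cluster, and for 262 of 859 3p strands and 279 of 847 5p strands outside it, without a test of the difference. At least 10 reads were found for 5 strands of each arm.

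Within single hairpins 1 arm usually prevailed. Of 32 hairpins of the cluster with both arms named, 18 had at least 10 reads, 8 had 1 to 9 reads and 6 had 0. Among the 18, 5 had more reads on the 3p arm, 12 on the 5p arm, and the Wilson interval left mir-518c undecided (10 reads from the 3p arm, 4 from the 5p arm). In 10 of the 18 the minor arm had 0 reads, against 56 of the 261 hairpins outside the cluster with at least 10 reads. In the DLK1-DIO3 cluster this was so for 9 of 36. The 10 hairpins all favoured the 5p arm and had at most 26 reads each, few in which to find a minor arm. mir-517c had 191 reads from its 3p arm and 1 from its 5p arm, so that the 3p arm held 99.5% (Wilson interval 97.1 to 99.9%). mir-524 had 46 reads from the 3p arm and 2 from the 5p arm, so that the 3p arm held 95.8% (86.0 to 98.8%). In mir-520d the 3p arm held 18 of 22 reads, or 81.8% (interval 61.5 to 92.7%). On the other side, mir-526b had 14 reads from the 5p arm and 1 from the 3p arm, which held 6.67% (1.19 to 29.8%). mir-516b-1 had 26 reads from the 5p arm and 0 from the 3p arm, whose share is then at most 12.9% by the same interval.

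These hairpins are not independent. Of the 12 that favoured the 5p arm, 6 carry the shared miR-518e, miR-519 and miR-522 to miR-523 strand, and the others are both copies of mir-516a, both copies of mir-516b, mir-520f and mir-526b. Counted by distinct strand, 5 strands prevailed on the 5p side and 4 on the 3p side (miR-517c-3p, the pair miR-517a-3p and miR-517b-3p, miR-524-3p and miR-520d-3p). Outside the cluster, 261 hairpins with both arms named had at least 10 reads, of which 112 had more on the 3p arm, 137 had more on the 5p arm and 12 were undecided. Among these were 36 hairpins of the DLK1-DIO3 cluster, with 25 on the 3p side, 9 on the 5p side and 2 undecided.

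**Figure D3:**
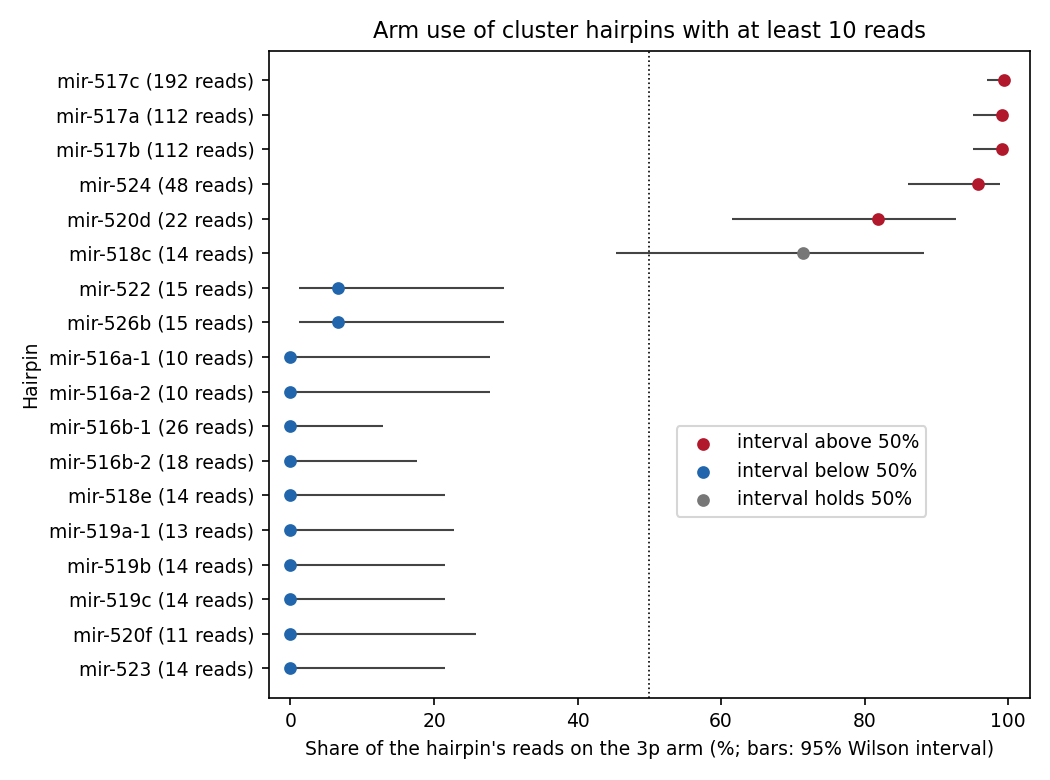
Share of a hairpin's reads that lay on the 3p arm (horizontal axis, percent) for the 18 cluster hairpins with at least 10 reads, with 95% Wilson intervals and a dotted line at 50%. The mir-517 hairpins, mir-524 and mir-520d lie above the line, 12 hairpins lie below 10% and only the interval of mir-518c holds 50%.

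Counts on the copies of a hairpin were not always the same. Of 20 miRNAs of the cluster that stand on more than 1 hairpin, 10 had reads, of which 5 had the same count on every hairpin and 5 had unequal counts. miR-516b-5p had 26 reads on mir-516b-1 and 18 on mir-516b-2. miR-520h had 6 reads on mir-520g, the count of miR-520g-3p there, and 1 read on its own hairpin, mir-520h. miR-520b likewise had 4 reads on mir-520c, where miR-520c-3p and miR-520f-3p also had 4, and 1 read on mir-520b. The shared 5p strand of miR-519 and its neighbours had 13 reads on mir-519a-1 and 14 on each of its 5 other hairpins. Reads that fit several near-copies cannot be assigned to one of them, so the counts of miR-520b, miR-520h and miR-520f-3p under those names are uncertain. Whether vervet reads of other near-copies, the miR-517 miRNAs among them, were counted under the wrong human name was not tested.

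The DLK1-DIO3 cluster, the other large imprinted miRNA cluster, is expressed from the maternal chromosome and occurs in placental mammals generally. The chromosome 19 cluster had 605 reads, against 10101 for DLK1-DIO3, or 0.0599 times as many (exact binomial interval 0.0551 to 0.0650). Reads were found for 32 of 52 chromosome 19 miRNAs (61.5%) and for 73 of 92 DLK1-DIO3 miRNAs (79.3%), and at least 10 reads for 12 (23.1%) and 52 (56.5%). The reads of the chromosome 19 cluster were gathered in fewer miRNAs: its most abundant miRNA held 31.6% (Wilson interval 28.0 to 35.4%), against 17.1% in DLK1-DIO3 (interval 16.4 to 17.9%).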

How the data were processed

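Small RNA libraries from 10 vervet livers were made with the Illumina TruSeq kit. Per the study's methods, sequencing was on a GAIIx and miRDeep2 gave the abundances. Trimming with cutadapt 1.10 and the aligner Bowtie are listed in the submitters' processing notes. The genome build and the release of miRNA names were not given in the sources used here. The authors deposited raw counts per mature miRNA and hairpin, and the column used was their total over all libraries. A further 20 columns, raw and normalized values of 10 numbered libraries, match no sample and were not used, so the planned test of HFr against chow was not run. Each name was represented by its highest row, and names with identical counts on identical hairpins, unless of opposite arms, were counted once, which left 2020561 reads. miRNAs with at least 10 reads were named with their counts. Shares have Wilson intervals, counts exact Poisson intervals and ratios exact binomial intervals, all at 95%. Their coverage was checked only on simulated independent reads, the model they assume. PCR copies and differences between libraries were not simulated. A count of 0 was taken to allow 3 reads. The members and lists were chosen with earlier results of these data known. Alternatives were adding all rows, counting every name, and a minimum of 10 reads. Mature sequences were not used here, so grouping by seed was not done. Computations used Python 3.11.15, SciPy 1.17.1 and pandas 2.3.3.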

Additional observations from a re-analysis of the deposited data

How the results depend on the processing

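Adding the reads of all hairpin rows left the cluster's share of the pool within its interval (0.0319%), lowered the 3p share of its reads to 70.6% and that of its most abundant miRNA to 26.7%, and raised the ratio to DLK1-DIO3 to 0.0817. The most abundant miRNA is then the pair miR-517a-3p and miR-517b-3p. Counting every name separately gave a share of the pool of 0.0389%, a 3p share of 74.5%, a share of the most abundant miRNA of 24.1%, a ratio of 0.0786 and 40 names with reads. These shifts follow from which rows or names are added. Of the 12 miRNAs with at least 10 reads, adding all rows moved 3 by over 1.5 times, up to 4.60-fold for the 5p strand shared by 6 names, and counting every name moved 0. Requiring at least 10 reads left 12 miRNAs. Chosen after seeing the data were leaving out miR-517, which gave a 3p share of 49.2%, and also counting once the names of one arm with one count on a shared hairpin, which left 30 miRNAs with reads and 0.0294% of the pool. No paired analysis was possible because libraries could not be linked to animals. Columns of single libraries, matched to no sample, entered no step, so leaving out a replicate and another normalization or a low count filter for a test of diet were not run, and how far 1 library sets these values is not known.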
